A study of Homo sapiens with 4 samples.

Results

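The genes described here encode thrombospondins and other matricellular proteins in the established human ovarian cancer line SKOV3, compared between tissue culture plate (TCP) and the polymer thin film called polymer X. They are 7 of the 19475 gene symbols in the expression table, namely THBS1, THBS2, THBS3, SPARC, SPP1, TNC and POSTN. For each symbol, the RefSeq transcript of highest average level was taken. These genes were chosen with their change between TCP and polymer X already known, so the values below describe that change and no p-value is given for any of the 7.

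Matricellular proteins are secreted into the extracellular matrix, where they bind structural proteins, growth factors, proteases and cell surface receptors, but they do not build the scaffold themselves. Thrombospondins are large calcium-binding glycoproteins that form trimers or pentamers. Thrombospondin-1 can activate latent TGF-beta and inhibits the growth of blood vessels. SPARC (osteonectin) and SPP1 (osteopontin) are found in mineralized tissue and in many tumors, and tenascin-C (TNC) and periostin (POSTN) accumulate in wounds and in tumor stroma.

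The RNA-seq data held 2 libraries of cells on TCP, labelled day 0, and 2 libraries of spheroids on polymer X, labelled day 8. All 4 come from the same cell line, and no sample label says whether the replicates were separate cultures, so p-values measure the spread between these libraries and that spread may be technical. In the methods of the study, SKOV3 was kept in fetal bovine serum and spheroids were grown in serum replacement and dissociated every few days, whereas the sample labels describe serum replacement for every library. Substrate and days in culture, and possibly medium, changed together and cannot be told apart in any result below. Values are FPKM, a level in which tags are divided by transcript length and by the size of the library. The libraries held 38404000 to 44917000 tags as read from the steps between the values, and replicates correlated at 0.998 (TCP) and 0.997 (polymer X), while pairs from different conditions correlated at 0.854 to 0.862. The tissue label was checked with 11 epithelial markers of SKOV3, of which 7 were tested. ERBB2 stood at 198 and 206 FPKM on TCP and at 913 and 860 on polymer X, and KRT8, KRT18 and PAX8 were also well detected, while CDH1, WT1, MUC16 and KRT19 were below 1 FPKM in each library.

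The promoters of these genes differed in base composition and in the motifs they held. Shown are the 250 bases before the transcription start from RefSeq (GRCh38.p14), in the direction of the gene, for the 4 genes that moved without overlap between the conditions at levels above 1 FPKM in at least 1 condition, and for THBS2, a thrombospondin that stayed low in both. Capitals mark matches to the motifs searched, and the other bases are in lower case. THBS1 is at chr15:39580829-39581078 (plus strand), THBS3 at chr1:155207898-155208147 (minus strand), SPARC at chr5:151686916-151687165 (minus strand), SPP1 at chr4:87975464-87975713 (plus strand) and THBS2 at chr6:169253847-169254096 (minus strand). RefSeq lists 2 promoters for THBS3, and the one nearer to the start of the transcript used is shown.
THBS1: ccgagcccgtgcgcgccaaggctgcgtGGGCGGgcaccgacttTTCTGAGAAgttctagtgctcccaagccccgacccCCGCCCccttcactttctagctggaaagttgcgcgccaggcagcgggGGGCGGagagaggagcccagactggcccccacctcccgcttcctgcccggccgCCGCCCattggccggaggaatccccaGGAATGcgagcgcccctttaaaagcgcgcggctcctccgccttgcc
THBS3: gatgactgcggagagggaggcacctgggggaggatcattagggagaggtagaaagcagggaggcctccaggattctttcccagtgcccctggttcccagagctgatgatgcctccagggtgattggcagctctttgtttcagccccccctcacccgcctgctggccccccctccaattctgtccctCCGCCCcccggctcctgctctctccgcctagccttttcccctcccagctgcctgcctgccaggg
SPARC: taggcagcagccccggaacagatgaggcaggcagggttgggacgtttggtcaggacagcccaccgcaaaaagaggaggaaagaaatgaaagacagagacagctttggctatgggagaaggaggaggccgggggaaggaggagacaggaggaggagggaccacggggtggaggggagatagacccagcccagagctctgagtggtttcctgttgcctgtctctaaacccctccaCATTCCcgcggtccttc
SPP1: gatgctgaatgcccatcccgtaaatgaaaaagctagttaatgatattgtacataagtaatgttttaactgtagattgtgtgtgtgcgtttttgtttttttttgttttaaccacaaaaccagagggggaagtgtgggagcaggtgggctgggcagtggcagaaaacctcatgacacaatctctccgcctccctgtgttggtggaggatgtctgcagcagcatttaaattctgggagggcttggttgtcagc
THBS2: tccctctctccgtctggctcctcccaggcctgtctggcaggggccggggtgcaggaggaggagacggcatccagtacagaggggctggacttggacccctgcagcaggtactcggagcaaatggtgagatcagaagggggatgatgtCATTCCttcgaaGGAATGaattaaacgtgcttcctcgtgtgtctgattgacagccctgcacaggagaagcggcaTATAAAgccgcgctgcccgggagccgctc

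The motifs, searched on both strands, were the TATA box (TATAAA), the TEAD site (GGAATG), the AP-1 site (TGANTCA), the SP1 site (GGGCGG), the STAT site (TTCNNNGAA) and the serum response element known as the CArG box. AP-1 and STAT matches can read the same on both strands and were then taken as 1 site, and no match shown overlaps a match to another motif. The THBS1 promoter held 1 TEAD match 46 bases before the end of the window shown, 1 STAT match 207 bases before it and 4 SP1 matches. SPARC held 1 TEAD match 17 bases before the end of its window. THBS2 held 2 TEAD matches and a TATA box 29 bases before the end of its window. The end of a window need not be the start of the transcript whose FPKM is given. The distance of the promoter to that start was 250 bases for SPARC and 198 for THBS2. For THBS1, SPP1 and THBS3 it was 14, 26 and 84 bases. THBS3 held 1 SP1 match in the promoter shown, and SPP1 held no match to any of the 6 motifs. Over all 35116 promoters of the same length, 11.9% held the TEAD site, 42.6% the SP1 site, 6.57% each the AP-1 and the STAT site, 10.7% the TATA box and 1.16% the CArG box. The GC content was 69.6% for THBS1, 64.4% for THBS3, 59.2% for SPARC, 60% for THBS2 and 44.8% for SPP1, against a median of 58% over all promoters. These matches describe letters in the window and do not show that a factor binds there.

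The thrombospondins split into a gene that almost vanished on polymer X, a gene that became several times higher and a gene that was low in both conditions. THBS1 (NM_003246; hg19 chromosome 15, 39873280 to 39891121) stood at 116 and 124 FPKM in the TCP libraries and at 0.765 and 0.620 in the polymer X libraries. Both TCP libraries were high and both polymer X libraries were low, with no overlap. The mean fell from 120 ± 5.18 to 0.693 ± 0.103 FPKM (SD, n = 2 each), a 173-fold lower level, and single TCP libraries lay between 152- and 199-fold above single polymer X libraries. On the log2(FPKM + 1) scale the difference was −6.16, which understates the change because the polymer X values lie below the added 1. The polymer X values still rest on 221 and 182 tags, against 32244 and 40088 on TCP. Among the 19475 symbols, THBS1 went from rank 400 on TCP to rank 12273 on polymer X.

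THBS3 (NM_001252607; chromosome 1, 155165379 to 155177772) encodes a thrombospondin of the pentamer-forming group and moved in the opposite direction. Its FPKM was 1.84 and 1.77 on TCP and 12.2 and 13.4 on polymer X, so that both polymer X libraries were high. The mean rose from 1.80 ± 0.0495 to 12.8 ± 0.885 FPKM (SD, n = 2 each), a 7.10-fold higher level with a range of 6.63 to 7.60 over pairs of libraries, and a log2 difference of 2.30. Its 3 transcripts in the table, which share tags, gave log2 differences of 2.29 to 2.32.

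THBS2 (NM_003247; chromosome 6, 169615875 to 169654209), the trimeric relative of THBS1, was not tested because it stayed below 1 FPKM. Its FPKM was 0.209 and 0.144 on TCP and 0.192 and 0.160 on polymer X, and the conditions overlapped. The 85 tags on TCP and 83 on polymer X gave a ratio of 1.01 after scaling to the library tags, with a 95% exact interval of 0.736 to 1.38 that covers counting error only. A change inside this interval was not detectable at this depth.

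**Figure D1:**
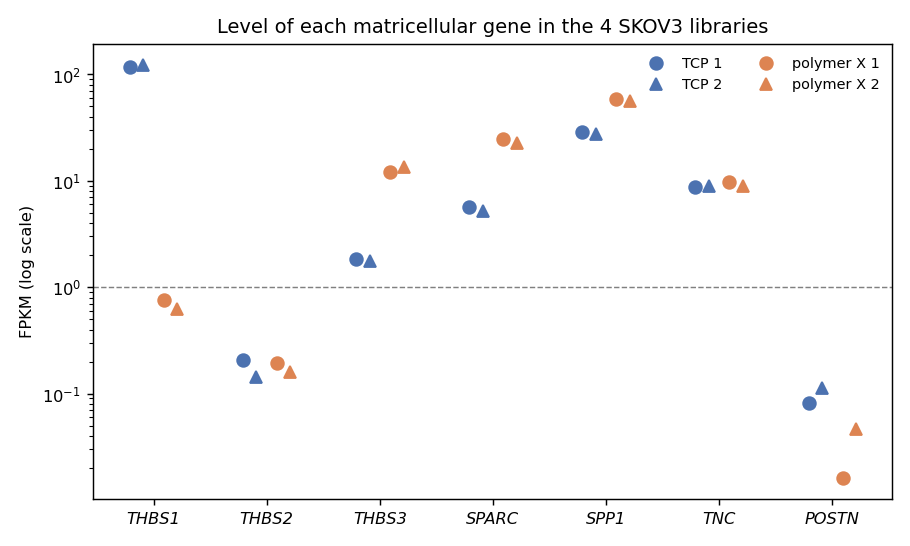
FPKM on a log scale for each of the 7 matricellular genes in the 4 SKOV3 libraries; circles are replicate 1, triangles replicate 2, blue is TCP (day 0), orange is polymer X (day 8), and the dashed line marks 1 FPKM. THBS1 drops from 116 and 124 to below 1 FPKM, THBS3, SPARC and SPP1 sit higher on polymer X, and the points of TNC and THBS2 overlap between the conditions.

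SPARC and SPP1, matricellular proteins that bind collagen and integrins respectively, were both higher on polymer X. SPARC (NM_001309443; chromosome 5, 151040657 to 151066615) stood at 5.73 and 5.16 FPKM on TCP and at 24.6 and 22.5 on polymer X. The mean rose from 5.44 ± 0.407 to 23.6 ± 1.49 FPKM (SD, n = 2 each), a 4.33-fold higher level with a range of 3.92 to 4.77 over pairs of libraries, and a log2 difference of 1.93. Both polymer X libraries lay above both TCP libraries, and the 3 transcripts of SPARC gave nearly the same difference, 1.93 on the log2 scale.

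SPP1 (NM_001040058; chromosome 4, 88896802 to 88904563), a ligand of CD44 and of several integrins, was already high on TCP. Its FPKM was 29.004 and 27.5 on TCP and 58.2 and 56.2 on polymer X. The mean rose from 28.3 ± 1.04 to 57.2 ± 1.38 FPKM (SD, n = 2 each), a 2.02-fold higher level with a range of 1.94 to 2.11 over pairs of libraries. The log2 difference of 0.99 lay just under the minimum of 1 used for calls, and over the other settings it ranged from 0.96 without TCP replicate 2 to 1.28 after quantile normalization. Its replicates had a coefficient of variation of 3.66% on TCP and 2.42% on polymer X, so that the replicates were close, yet the difference fell on either side of that minimum.

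TNC overlapped between the conditions, and POSTN was low throughout and lower on polymer X. TNC (NM_002160; chromosome 9, 117781854 to 117880536), which encodes the hexameric tenascin-C, stood at 8.72 and 8.999 FPKM on TCP and at 9.68 and 8.93 on polymer X. The means were 8.86 ± 0.195 and 9.30 ± 0.526 FPKM (SD, n = 2 each), a ratio of 1.05 and a range over pairs of 0.992 to 1.11. POSTN (NM_001135935; chromosome 13, 38136719 to 38172981) was barely detected, at 0.0820 and 0.112 FPKM on TCP and 0.0160 and 0.0460 on polymer X. It rested on 26 tags on TCP and 8 on polymer X, a ratio of 0.318 with a 95% exact interval of 0.124 to 0.722 that covers counting error only, and it was not tested. Both TCP libraries were higher than both polymer X libraries, but the lowest rested on 2 tags.

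Of the 7 genes, 5 passed the filter of at least 1 FPKM in at least 2 libraries, and THBS1 passed it through the TCP libraries alone, so that it had to differ. A gene was called where limma gave an adjusted p under 0.05 and the log2 fold change reached 1 in either direction. By this rule, THBS3 and SPARC were higher and THBS1 was lower. Over all 11964 genes tested, 10.7% were called higher and 9.45% lower. The conditions did not overlap for 4 of the 5 tested genes, beside 90.4% of all genes tested. Since the genes were chosen on this contrast, nothing is read from these counts.

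The order of the 7 genes by level changed with the culture. On TCP it ran THBS1, SPP1, TNC, SPARC, THBS3, THBS2 and POSTN, and on polymer X it ran SPP1, SPARC, THBS3, TNC, THBS1, THBS2 and POSTN. FPKM is a level per transcript length, so these genes can be set side by side, and in each condition the libraries of no 2 neighbours in the order overlapped. Summed over the 7 genes, FPKM was 162 and 167 on TCP and 106 and 102 on polymer X. Without THBS1, the sum ran the other way, from 44.7 ± 1.32 to 103 ± 2.52 FPKM (SD, n = 2 each). THBS1 made up 71.8% and 73.9% of the sum on TCP and 0.724% and 0.608% on polymer X, where SPP1 made up 55.1% and 55.2%, SPARC 23.3% and 22.1%, THBS3 11.5% and 13.2% and TNC 9.16% and 8.76%.

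**Figure D2:**
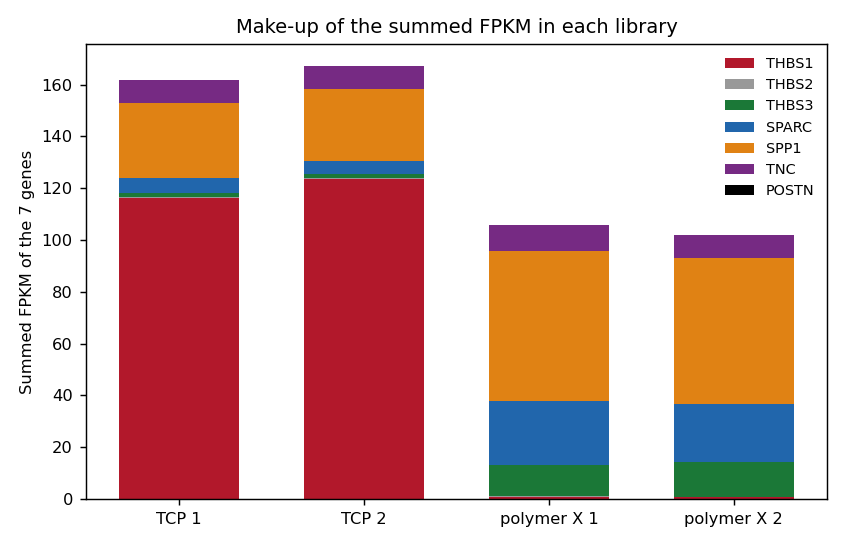
Summed FPKM of the 7 matricellular genes in each of the 4 libraries, from 0, with 1 colored segment per gene. THBS1 fills most of the 2 TCP bars (71.8% and 73.9%) and is hardly visible in the polymer X bars, where SPP1 takes 55.1% and 55.2%.

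Next, the genes with the pattern most like that of each of the 3 called genes were listed, by the Euclidean distance between centred log2(FPKM + 1) values over the 4 libraries, among 11959 genes. Nearest to THBS1 were CTGF (CCN2), CYR61 (CCN1), both matricellular proteins of the CCN family, and the protease ADAMTS1, at distances of 1.30, 1.38 and 1.54. These distances are large because THBS1 had the lowest log2 difference. Nearest to THBS3 were INSIG2, a regulator of sterol synthesis, WSB1 and TRIB2, at 0.034, 0.038 and 0.054. Nearest to SPARC were the protocadherin PCDHB11, the TNF receptor family member CD40 and VAV3, at 0.023, 0.053 and 0.065. With 4 libraries in 2 groups, a short distance says little more than that the difference between the groups is of like size.

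The neighbours of the 7 genes on the chromosome were then examined, since tags were counted on exons without regard to strand. No other gene in the table overlaps any of the 7. In GENCODE 29 (GRCh38), the antisense gene AC234582.1 covers 22.2% of the exon bases of THBS3 on the opposite strand and MTX1 covers 3.16%. Tags from THBS3 and such an antisense transcript could not be told apart. In the same annotation, the share of exon bases covered on the opposite strand was 7.89% for SPARC by CLMAT3, 4.89% for THBS1 by FSIP1, 4.49% for THBS1 by AC037198.2 and 1.34% for TNC by DEC1.

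Of the 14 nearest tested genes, 1 was called, beside 10.7% called higher and 9.45% called lower over all genes tested. It was MUC1, a membrane mucin gene that lies 2673 bases from THBS3 in hg19. Its FPKM rose from 1.75 ± 0.0608 to 16.0 ± 0.967 (SD, n = 2 each), a log2 fold change of 2.63 (limma, adjusted p = 3.8e-09). MTX1, a mitochondrial import gene 718 bases away on the other side of THBS3, had 10.4 ± 0.277 FPKM on TCP and 10.2 ± 0.342 on polymer X (SD, n = 2 each), a log2 fold change of −0.02 (limma, adjusted p = 0.795). Both neighbours of SPP1 lay above 0 as SPP1 did. They were the bone sialoprotein gene IBSP (0.87, 163201 bases away) and the polycystin gene PKD2 (0.70, 24236 bases away). Both were under the minimum for calls. IBSP passed the filter through the polymer X libraries alone, so that it had to differ. Neighbours of THBS1 were below 0, FAM98B (1093369 bases away) at −0.92 and GPR176 (200102 bases away) at −0.52. Those of SPARC were at −0.11 (SLC36A1, 168715 bases away) and −0.43 (ATOX1, 55768 bases away). For TNC, THBS2 and POSTN, the neighbours were 203094 to 1306968 bases away, and their log2 fold changes lay between −0.35 and 0.48.

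**Figure D3:**
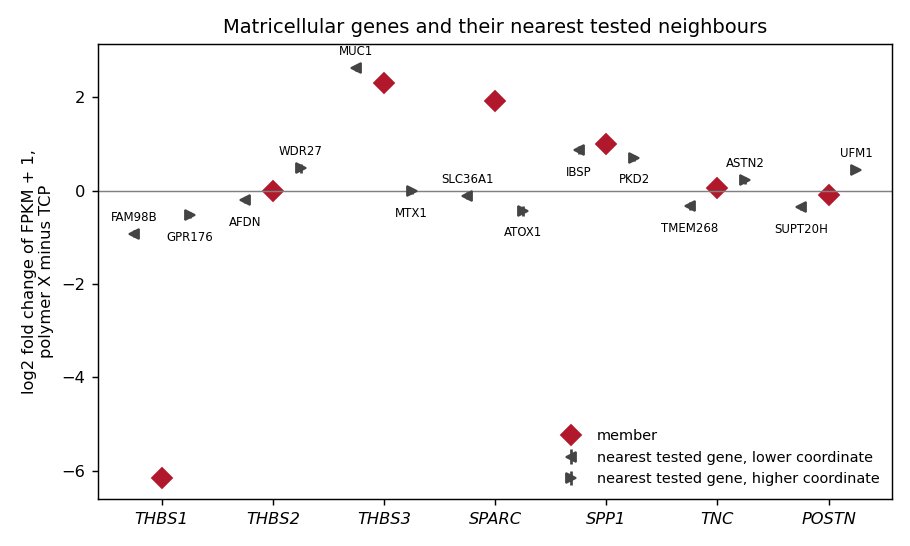
Log2 fold change of FPKM + 1 (polymer X minus TCP) for each of the 7 matricellular genes (red diamonds) and for the nearest tested gene on either side of it in hg19 (triangles, with the standard error from limma as bars, mostly hidden by the symbols). MUC1 lies at 2.63 beside THBS3 at 2.30, and the other 13 neighbours lie between −0.92 and 0.87.

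Other matricellular genes also went in both directions. Of 23 relatives listed, 11 were tested, 4 rose (36.4%) and 3 fell (27.3%), beside 10.7% and 9.45% of all genes tested. Counts of genes that rose or fell, here and in the lists below, are of genes called. The median log2 fold change was 0.87 against −0.06 over all genes tested. This median is not stable: without the filter it was 0.09, and among genes averaging 5 FPKM or more it was −1.12. Of the 11 tested, 6 passed the filter through the libraries of 1 condition alone, so that they had to differ. In the thrombospondin family, THBS4 rose from 0.809 ± 0.0283 to 2.66 ± 0.357 FPKM (SD, n = 2 each), with a log2 fold change of 1.01 (limma, adjusted p = 5.4e-06). THBS4 passed the filter through the polymer X libraries alone, and it lost its call, at 0.67 after quantile normalization, 0.999 without TCP replicate 2 and 0.92 without polymer X replicate 2. COMP, the fifth thrombospondin, was listed at 0.021 and 0.073 FPKM on TCP and at 0.103 and 0.051 on polymer X, which overlap. Thus, THBS1 was the only family member above 1 FPKM on TCP that was below 1 on polymer X, whereas THBS3 and THBS4 were higher there.

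In the SPARC family, the calcium-binding SMOC1 rose from 0.295 ± 0.0325 to 6.31 ± 0.192 FPKM (SD, n = 2 each), 21.4-fold, and the follistatin-like FSTL1 fell from 403 ± 3.65 to 120 ± 0.427 FPKM (SD, n = 2 each). Their log2 fold changes were 2.50 and −1.74 (limma, adjusted p = 6.8e-09 and 8.6e-09). SPARCL1, the closest relative of SPARC, had a log2 fold change of 0.89 and SPOCK1, a testican, had −0.81, both with an adjusted p below 0.05 in limma and neither reaching the minimum for calls. IBSP (0.87), from the family of SPP1, and TGFBI (−0.51), the relative of POSTN, were likewise not called. At such low levels this scale understates the fold. SPARCL1 rose 6.13-fold from 0.202 ± 0.0184 to 1.24 ± 0.252 FPKM and IBSP 6.25-fold from 0.189 ± 0.0113 to 1.18 ± 0.175 FPKM (SD, n = 2 each). With a pseudocount of 0.1 both were called, each at 2.14, and SPARCL1 was also called with summed transcripts (1.70). SMOC1, SPARCL1 and IBSP passed the filter through the polymer X libraries alone, so that they had to differ. FSTL1 had the highest level of any matricellular gene listed here, above THBS1 also on TCP.

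The CCN family, whose members bind integrins and heparan sulfate, split evenly among its 4 tested genes. CTGF stood at 49.5 and 49.7 FPKM on TCP and 0.845 and 0.652 on polymer X, and CYR61 stood at 154 and 157 against 4.62 and 4.74. Both fell, with log2 fold changes of −4.86 and −4.78 (limma, adjusted p = 2.1e-10 and 6.1e-11). In contrast, NOV (CCN3) rose 6.66-fold from 2.88 ± 0.0544 to 19.2 ± 1.23 FPKM and WISP2 (CCN5) rose 34.3-fold from 0.887 ± 0.109 to 30.4 ± 2.75 FPKM (SD, n = 2 each). Their log2 fold changes were 2.38 and 4.06 (limma, adjusted p = 5.2e-09 and 9.2e-10). CTGF passed the filter through the TCP libraries alone and WISP2 through the polymer X libraries alone, so that both had to differ. The 12 relatives that were not tested, COMP, SMOC2, SPOCK2, SPOCK3, DMP1, DSPP, MEPE, TNN, TNR, TNXB, WISP1 and WISP3, stayed below 1 FPKM in all 4 libraries, and TNR was listed at 0 in each.

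Receptors that bind thrombospondins, SPARC or osteopontin held called genes in both directions. Of 34 listed, 28 were tested, 6 rose (21.4%, against 10.7% of all genes tested) and 2 fell (7.14%, against 9.45%). Of the 28, 3 passed the filter through the polymer X libraries alone, CD36 and ITGA7 among them, so that they had to differ. The median log2 fold change was 0.48, and it was −0.02 among genes averaging 5 FPKM or more. CD36, the scavenger receptor through which thrombospondin-1 acts on endothelial cells, was at 0 and 0.014 FPKM on TCP and at 4.27 and 3.41 on polymer X, at least 81.1-fold higher against a floor of 3 tags per library (log2 fold change 2.26; limma, adjusted p = 5.3e-08). LRP1, an endocytic receptor that clears thrombospondins, rose 5.48-fold from 6.70 ± 0.215 to 36.7 ± 3.999 FPKM (SD, n = 2 each). The integrin subunits ITGA7 and ITGB8 rose 8.24- and 5.08-fold. EGFR, to which tenascin-C can bind, fell from 25.3 ± 0.788 to 7.24 ± 0.630 FPKM and ITGB1, the common beta subunit of many matrix receptors, from 330 ± 1.52 to 130 ± 7.55 FPKM (SD, n = 2 each). None of the 4 syndecans, which bind thrombospondin through heparan sulfate, was called.

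Genes for the folding, glycosylation and crosslinking of secreted matrix proteins were listed next. Of 19 listed, 18 were tested, 3 were called higher (16.7%, against 10.7% of all genes tested) and 0 lower (against 9.45%). The median log2 fold change was 0.20. The log2 fold changes of those not called ran from −0.94 to 0.83. The crosslinking enzymes LOX and TGM2 rose 3.87- and 3.01-fold, and FAM20C, the kinase that phosphorylates osteopontin and other secreted proteins, rose 2.68-fold from 8.54 ± 0.436 to 22.9 ± 0.591 FPKM (SD, n = 2 each). None of the 5 genes that add sugars to thrombospondin or EGF-like repeats and none of the 7 chaperones was called.

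Among proteases that can cleave matricellular proteins, 13 of 19 were tested. Of these, 5 rose (38.5%, against 10.7% of all genes tested) and 1 fell (7.69%, against 9.45%). The median log2 fold change was 0.46. It was 0.21 over all 19 without the filter and 0.13 among genes averaging 5 FPKM or more. The interstitial collagenase MMP1 rose 42.0-fold from 21.3 ± 1.80 to 893 ± 7.43 FPKM (SD, n = 2 each), the serine protease HTRA1 14.3-fold, the matrilysin MMP7 64.7-fold and the gelatinase MMP2 4.83-fold. ADAMTS1, a metalloprotease that itself carries thrombospondin repeats, fell from 173 ± 1.85 to 5.999 ± 0.595 FPKM (SD, n = 2 each), 28.8-fold. Its log2 fold change was −4.64 (limma, adjusted p = 2.1e-10), beside −6.16 for THBS1. MMP7 passed the filter through the polymer X libraries alone, so that it had to differ.

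Thrombospondin-1 is known as an activator of latent TGF-beta, and 20 of 24 genes listed for TGF-beta activation and response were tested. Of these, 4 rose (20%, against 10.7% of all genes tested) and 6 fell (30%, against 9.45%), with a median log2 fold change of −0.07. The genes that rose were the latent TGF-beta binding proteins LTBP1, LTBP3 and LTBP4, 5.73-, 4.42- and 4.47-fold, and the ligand TGFB1, 2.13-fold. The ligand TGFB2 fell from 8.17 ± 0.251 to 0.625 ± 0.0368 FPKM (SD, n = 2 each). It passed the filter through the TCP libraries alone, so that it had to differ. Of 8 TGF-beta response genes, 5 were called lower and 0 higher. The log2 fold changes of those not called ran from −0.77 to 0.91. Among those called lower was the actin-binding TAGLN, from 17.8 ± 0.110 to 2.54 ± 0.135 FPKM (SD, n = 2 each). Another was the transcription factor SNAI2, from 29.6 ± 0.680 to 7.98 ± 0.325 FPKM (SD, n = 2 each). Their log2 fold changes were −2.41 and −1.77 (limma, adjusted p = 3.8e-09 and 1.1e-08). None of the 7 receptors and SMADs was called.

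Of 30 listed transcriptional regulators of matricellular genes, 29 were tested. Of these, 2 rose (6.9%, against 10.7% of all genes tested) and 6 fell (20.7%, against 9.45%). The median log2 fold change was −0.42. MYC, known as a repressor of THBS1, fell 9.66-fold from 20.04 ± 0.447 to 2.07 ± 0.124 FPKM (SD, n = 2 each). KLF6, the AP-1 subunit FOSL1 and ETS2 fell 4.44-, 4.08- and 4.22-fold. SOX4 rose 5.10-fold, and PRRX1, a mesenchymal homeobox gene, was at 0.026 and 0 FPKM on TCP and at 7.67 and 6.97 on polymer X. PRRX1 passed the filter through the polymer X libraries alone, so that it had to differ. Of the 9 tested genes for SRF, YAP and TEAD factors and their partners, 0 were called higher and 1 lower. The log2 fold changes of those not called ran from −0.93 to 0.95, most of them below 0.

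Thrombospondin-1 is also known as an inhibitor of blood vessel growth, and 8 of 17 listed factors and inhibitors of angiogenesis were tested. Of these, 4 rose (50%, against 10.7% of all genes tested) and 1 fell (12.5%, against 9.45%). The median log2 fold change was 1.00, and it was 0.39 over all 17 without the filter. ANGPTL4 rose 64.7-fold from 3.53 ± 0.743 to 229 ± 3.15 FPKM, VEGFA 14.2-fold from 65.9 ± 0.664 to 933 ± 81.5 FPKM (SD, n = 2 each), PDGFB 13.2-fold and the inhibitor vasohibin (VASH1) 3.02-fold. PDGFB passed the filter through the polymer X libraries alone, so that it had to differ. FGF2, which thrombospondin-1 can bind, fell from 38.7 ± 0.441 to 7.58 ± 0.532 FPKM (SD, n = 2 each). The log2 fold changes of ANGPTL4, VEGFA and FGF2 were 5.67, 3.80 and −2.21 (limma, adjusted p = 3.4e-10, 7.0e-10 and 4.8e-09).

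**Figure D4:**
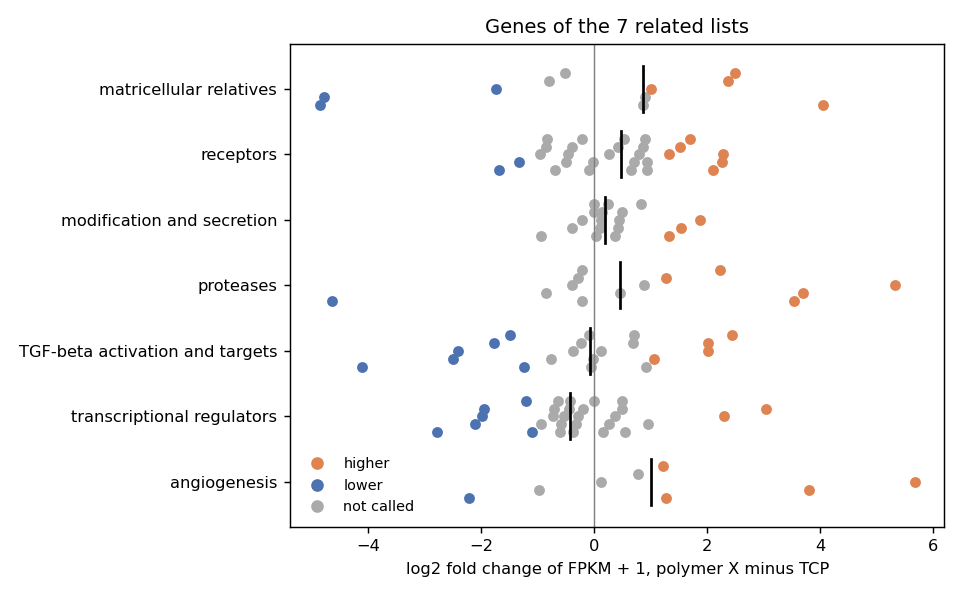
Log2 fold change of FPKM + 1 (polymer X minus TCP) for every tested gene of 7 lists related to matricellular proteins, with 1 point per gene, orange for called higher, blue for called lower, grey for not called, and a black bar at the median of each list. The medians run from −0.42 (transcriptional regulators) to 1.00 (angiogenesis), and the matricellular relatives and the TGF-beta genes hold called genes on both sides of 0.

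Stromal cells are a known source of SPARC, THBS2, TNC and POSTN, so their markers were examined in the same libraries. Of 11 fibroblast and mesothelial markers, 6 were tested and 5 rose (83.3%, against 10.7% of all genes tested). The summed level of all 11 was 18.5 to 19.3 FPKM on TCP and 80.5 to 90.5 on polymer X. LUM, DCN, COL3A1 and ACTA2 passed the filter through the polymer X libraries alone, so that they had to differ, and the median log2 fold change was 2.38 over the 6 tested and 0.65 over all 11. The proteoglycan genes LUM and DCN were at 0.074 and 0.232 and at 0.025 and 0 FPKM on TCP, and at 24.1 and 19.6 and at 7.26 and 6.20 on polymer X. COL1A2 rose from 8.58 ± 0.240 to 44.0 ± 2.58 FPKM (SD, n = 2 each), COL1A1 was not called (log2 fold change −0.96), and PDGFRA, PDGFRB and THY1 stayed below 1 FPKM in all libraries. None of the 6 endothelial and 10 immune and platelet markers was tested, with summed levels of 0.154 to 0.853 and 0.934 to 2.01 FPKM and 3 of the latter at 0 in all libraries. The part of these stromal genes in the higher SPARC and THBS3 was not tested. In such bulk libraries, a change in the share of cells that make a transcript and a change in its level per cell cannot be told apart.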

How the data were processed

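Messenger RNA of SKOV3 was sequenced in 4 libraries, 2 per group by the sample titles. Per the submitters' processing notes, reads were aligned with STAR 2.4.0 and HOMER and DESeq were used, with hg19. The authors deposited FPKM per RefSeq transcript (50078 rows), counted on exons without strand and rounded to 3 decimals. The library kit was directional per the labels. Multiplied by transcript length, the low values lay within 0.1 of whole tags (100% of those used), which gave the tags per library. Intervals from tags cover counting error only.

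Per symbol, the transcript with the highest mean was used (10500 symbols had more than 1). Genes reaching 1 FPKM in 2 or more libraries entered limma 3.58.1 (R 4.3.3, mean-variance trend, Benjamini-Hochberg) on log2(FPKM + 1). Calls needed an adjusted p under 0.05 and a log2 fold change of 1 or more in size. A fold change on this scale understates that of low genes. The smallest two-sided p of an exact permutation test of 2 against 2 is 0.333, and adjusted p-values therefore depend on the variance limma pools over genes.

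The 7 genes and the related lists were chosen with earlier results of these data known, and the lists were written from general knowledge. Named were the 7 genes, all listed relatives, at most 4 called genes in each direction of each list by size of change, the 3 genes most alike per called gene, and the nearest tested genes on both sides. Non-called markers were named as a check of the label. A gene that this rule names is not reported here. Alternatives were the pseudocount, filters, scaling, transcripts summed, the replicate block, no variance trend, other fold minimums and each library left out. On simulated tags for 11159 genes, the test called 193 of 200 genes changed by 1.5 on the log2 scale in the right direction. Of 10959 unchanged genes, it called 0, and 18 had an adjusted p under 0.05. The changed genes all started above 1 FPKM, far fewer genes changed than were called in the data, and each gene had the same added spread. These counts therefore give no error rate for the deposited libraries. Promoters came from RefSeq (GRCh38.p14), and no coordinate was converted between builds.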

Additional observations from a re-analysis of the deposited data

How the results depend on the processing

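Of the genes named here, none that was called changed sign under any alternative run; THBS2, MTX1 and ASTN2, close to 0 and not called, did under some. The median of the matricellular relatives ranged from −1.12 to 1.60 and that of the receptors from −0.02 to 0.60, both lowest with a mean FPKM of at least 5. The medians of the other lists kept their sign, with ranges of 0.39 to 1.17 for angiogenesis, 0.13 to 0.62 for proteases, 0.15 to 0.48 for modification and secretion, −0.13 to −0.04 for TGF-beta and −0.48 to −0.29 for transcriptional regulators. Counts moved by more than 1.5 times as follows. With no fold minimum, 4477 genes were called higher and 5212 lower, with 5 relatives lower, 16 receptors higher and 10 lower, 9 modification and secretion genes higher and 3 lower, 6 proteases lower, 7 TGF-beta genes higher, 8 transcriptional regulators higher and 19 lower, and 2 angiogenesis genes lower. With a log2 minimum of 2, there were 281 higher and 150 lower, with 3 receptors higher and 0 lower, 0 modification and secretion genes higher, 3 TGF-beta genes lower, 2 transcriptional regulators lower and 2 angiogenesis genes higher; fewer genes can pass a higher minimum. With a mean FPKM of at least 5, which tests fewer genes, 702 genes were called higher, with 2 relatives, 2 receptors, 1 transcriptional regulator and 2 angiogenesis genes higher.

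A pseudocount of 0.1 gave log2 differences of −7.25 for THBS1, 2.76 for THBS3, 2.09 for SPARC and −0.59 for POSTN, and 2 angiogenesis genes lower. Summing the transcripts of a gene gave 2.63 for THBS3 and −0.50 for POSTN, and 1 modification and secretion gene lower. Quantile normalization gave −6.30 for THBS1 and 1.28 for SPP1; the cause was not tested. SPP1 also passed 1 with the pseudocount of 0.1 (1.01), median scaling (1.03), summed transcripts (1.01), without TCP replicate 1 (1.03) and without polymer X replicate 2 (1.02).

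Leaving out each library in turn, in fits where the lone sample is assumed to vary like the other group, 1 to 2 angiogenesis genes were called lower (2 without TCP replicate 1 or polymer X replicate 1) and 0 to 1 modification and secretion genes (1 without polymer X replicate 1). Libraries with the same number deviated from their group means with a correlation of 0.0927. With 2 libraries per group, this value cannot show whether they shared a culture or batch, and the labels give only the number. With the replicate block, 1285 genes were higher and 1131 lower and THBS1 was at −6.16, as without it. Of 669 values of 57 other named genes, 5 lost a call (THBS4 in 3, ITGB1 and PDGFB after quantile normalization) and 5 gained one. At this depth THBS2 and POSTN, with at most 47 tags a library, are the least certain.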
